A study of Mus musculus and Rattus norvegicus with 21 samples.

Results

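Regions of the repressive histone mark H3K27me3 (trimethylation of lysine 27 of histone H3) were compared between thyroid glands of Glis3 knockout mice on the normal diet (Glis3KO-ND) and thyroid glands of wild-type mice on the same diet (WT-ND). All regions of both deposited lists that lie on the numbered chromosomes of mm10 were used. There were 7039 of them, 4043 in Glis3KO-ND and 2996 in WT-ND, out of 27185 H3K27me3 regions in the 4 libraries of this mark in the series. The main values were a covered length 1.77 times as large in Glis3KO-ND as in WT-ND, 671 genes marked at a transcription start site (TSS) in Glis3KO-ND only, and 214 genes marked in WT-ND only.

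The study profiled thyroid transcription factors and histone marks by chromatin immunoprecipitation and sequencing (ChIP-seq). The Glis3KO-ND thyroids came from mice labelled B6.Glis3<tm2(mCherry)Amj>, and the WT-ND thyroids from mice labelled WT. Both groups were C57BL/6, 1 month of age, fed the NIH-31 normal diet, and immunoprecipitated with the Abcam antibody ab6002. The study's methods write the knockout allele as tm3(mCherry), and this difference from the labels was not resolved. Which part of Glis3 is deleted is not stated in the labels. No H3K27me3 region lay within 1 kb of the Glis3 TSS in either library, so these lists do not check the genotype labels. Each group was 1 library of whole thyroid tissue, with no replicate, so no difference below was tested, and the intervals given are 95% Wilson intervals that cover counting error only. The lists hold positions without a score, and the number of reads behind them is unknown, so more of the mark and deeper sequencing cannot be told apart.

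H3K27me3 is placed by Polycomb repressive complex PRC2 and marks genes that are kept silent, above all developmental regulators whose promoters are rich in CpG dinucleotides. In differentiated tissue the mark forms wide domains over genes of other lineages, such as the Hox clusters. A promoter can also carry H3K4me3, the mark of active or poised promoters, in the same tissue, either on the same molecules or in different cells. GLIS3 is a Krüppel-like zinc finger transcription factor of thyroid follicular cells, where NKX2.1, PAX8, FOXE1 and HHEX maintain the follicular cell programme.

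Promoters of 6 genes are shown because they stand for the kinds of start site that the comparison turned on. Each run is the 250 bases before the TSS, read from the RefSeq promoter table for GRCm38.p6 (the assembly called mm10), 5′ to 3′ on the gene's own strand, with each CpG in capitals. The first group was covered by H3K27me3 in Glis3KO-ND and free of it in WT-ND, over all 250 bases of each.
Gata2: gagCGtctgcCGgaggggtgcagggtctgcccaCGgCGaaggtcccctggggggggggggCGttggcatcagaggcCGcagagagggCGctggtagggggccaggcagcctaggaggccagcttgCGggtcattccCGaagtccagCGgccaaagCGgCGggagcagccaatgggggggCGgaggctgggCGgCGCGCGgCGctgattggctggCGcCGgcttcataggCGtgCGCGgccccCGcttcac
Ccno: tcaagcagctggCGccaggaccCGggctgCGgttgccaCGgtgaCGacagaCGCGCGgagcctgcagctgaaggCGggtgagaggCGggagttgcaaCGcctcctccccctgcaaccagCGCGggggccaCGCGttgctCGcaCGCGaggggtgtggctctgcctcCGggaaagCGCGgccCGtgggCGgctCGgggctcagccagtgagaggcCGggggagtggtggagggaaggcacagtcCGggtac
Tbr1: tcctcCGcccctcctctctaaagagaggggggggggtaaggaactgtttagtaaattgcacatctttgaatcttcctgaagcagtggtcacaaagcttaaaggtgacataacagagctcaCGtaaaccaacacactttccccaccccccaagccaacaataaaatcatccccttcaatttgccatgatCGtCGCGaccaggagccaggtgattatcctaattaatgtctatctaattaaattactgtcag
The second group was covered in WT-ND and free of the mark in Glis3KO-ND, over 207 bases at Mycl and 250 at Duox2.
Mycl: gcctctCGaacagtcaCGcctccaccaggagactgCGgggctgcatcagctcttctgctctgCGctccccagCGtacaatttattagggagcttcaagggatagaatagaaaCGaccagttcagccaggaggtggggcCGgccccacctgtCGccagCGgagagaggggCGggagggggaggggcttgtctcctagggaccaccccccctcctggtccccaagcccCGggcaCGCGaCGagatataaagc
Duox2: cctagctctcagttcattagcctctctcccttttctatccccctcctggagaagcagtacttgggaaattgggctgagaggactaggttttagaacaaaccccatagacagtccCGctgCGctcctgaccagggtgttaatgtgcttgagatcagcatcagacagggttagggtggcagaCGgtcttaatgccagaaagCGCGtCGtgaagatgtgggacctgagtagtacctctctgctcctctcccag
The last, of the gene that encodes NKX2.1, was free of the mark in both libraries.
Nkx2-1: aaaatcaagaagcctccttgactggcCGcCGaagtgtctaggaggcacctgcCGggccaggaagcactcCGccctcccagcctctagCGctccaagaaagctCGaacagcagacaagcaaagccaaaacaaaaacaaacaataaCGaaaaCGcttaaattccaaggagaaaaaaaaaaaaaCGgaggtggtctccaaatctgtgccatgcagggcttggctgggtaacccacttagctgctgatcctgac
The Gata2 run lies at chr6:88198414-88198663 on the plus strand and holds 24 CpG, and 11.98% of the 32851 promoters in the table hold as many. The Ccno run (chr13:112987552-112987801, plus strand) holds 26, as 9.59% of promoters do. The Tbr1 run (chr2:61804203-61804452, plus strand) holds 5, a number reached by 55.6%. Mycl (chr4:122995681-122995930, plus strand) has 14 CpG, a number reached by 29.4% of promoters. Duox2 (chr2:122298228-122298477, minus strand) has 6, reached by 50.4%, and Nkx2-1 (chr12:56536909-56537158, minus strand) has 9, reached by 40.3%. The first group thus held 5 to 26 CpG and the second 6 and 14, beside a median of 6.0 over the table. These promoters were chosen after their values were seen. Among the genes whose TSS matched the table, the median was 12 CpG in the 250 bases for the 481 genes marked in Glis3KO-ND only, 12 for the 162 marked in WT-ND only, 16.0 for the 769 marked in both and 11.0 for the 14250 marked in neither.

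More of the genome was marked in Glis3KO-ND, through both more and wider regions. The 4043 Glis3KO-ND regions covered 13.0 Mb and the 2996 WT-ND regions covered 7.38 Mb, which is 0.530% of the numbered chromosomes in Glis3KO-ND and 0.300% in WT-ND. The number of regions was 1.35 times as large in Glis3KO-ND as in WT-ND and the mean width 1.31 times as large. The median width was 1765 bp in Glis3KO-ND and 1372 bp in WT-ND. Both lists start at 1001 bp, the smallest width in either, which was the width of 1307 Glis3KO-ND regions (32.3%) and 1200 WT-ND regions (40.1%). The lists parted most at large widths. Regions of 5 kb or more numbered 633 in Glis3KO-ND and 281 in WT-ND, and those of 10 kb or more numbered 227 in Glis3KO-ND and 91 in WT-ND. The widest region was 95057 bp in Glis3KO-ND and 49314 bp in WT-ND, both over the Hoxc cluster.

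The excess was spread over the chromosomes. The covered length was larger in Glis3KO-ND on all 19 numbered chromosomes, with a ratio to WT-ND that ran between 1.54 on chromosome 15 and 2.24 on chromosome 18 and a median of 1.77. The share of Glis3KO-ND regions without overlap in WT-ND ran between 49.6% and 65.8% over the chromosomes, and that of WT-ND regions without overlap in Glis3KO-ND between 30.3% and 51.7%. The X chromosome, left out here, carried 73 regions in Glis3KO-ND and 54 in WT-ND.

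Regions with at least 1 bp in common were counted as shared. In Glis3KO-ND 1691 of 4043 regions were shared (41.8%, interval 40.3 to 43.4%) and 2352 were not (58.2%). In WT-ND 1855 of 2996 were shared (61.9%, interval 60.2 to 63.6%) and 1141 were not (38.1%). Counted in bases the lists were closer to each other, with 5.51 Mb marked in both, which is 42.2% of the Glis3KO-ND length and 74.6% of the WT-ND length. Of the 7.54 Mb marked in Glis3KO-ND alone, 3.27 Mb lay inside shared regions and 4.26 Mb in regions that WT-ND lacked. The corresponding lengths marked in WT-ND alone were 0.488 Mb inside shared regions of a total of 1.88 Mb.

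Regions found in 1 library were narrow in both. The 2352 Glis3KO-ND-only regions had a median width of 1251 bp, and 49.8% of them had the minimum width, against a median of 3332 bp in the shared Glis3KO-ND regions. The 1141 WT-ND-only regions had a median width of 1001 bp, and 71.3% had the minimum width, against 2070 bp in the shared WT-ND regions. Wide regions without a partner occurred almost only in Glis3KO-ND, with 111 of 5 kb or more and 27 of 10 kb or more in Glis3KO-ND, against 4 of 5 kb or more and 0 of 10 kb or more in WT-ND. The median distance to the nearest region of the other library was 43379 bp for Glis3KO-ND-only regions and 18648 bp for WT-ND-only regions. Just outside the overlap rule, 202 Glis3KO-ND-only and 191 WT-ND-only regions lay within 2500 bp of a region of the other library.

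The shared percentage increased with width in both lists. In Glis3KO-ND it was 10.4% at 1001 bp, 28.8% at over 1001 bp but under 2 kb, 66.1% at 2 to 5 kb, 79.3% at 5 to 10 kb and 88.1% at 10 kb or more. In WT-ND it was 32.2% at 1001 bp, 65.5% at over 1001 bp but under 2 kb, 91.7% at 2 to 5 kb, 97.9% at 5 to 10 kb and 100% at 10 kb or more. A wide region has more bases with which to meet another, and the longer list offers more partners. How far either bears on these percentages was not tested.

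**Figure D1:**
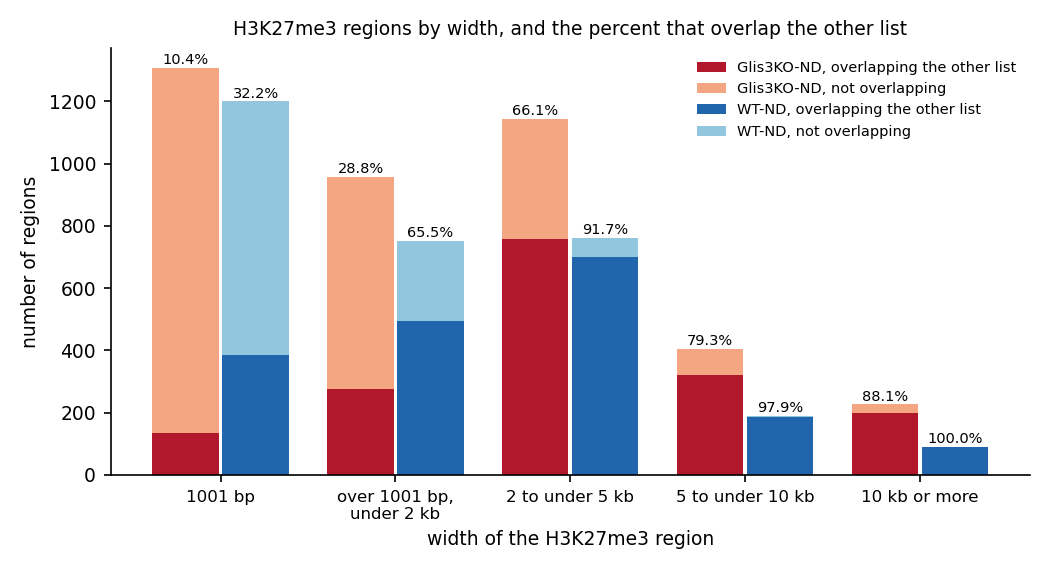
Number of H3K27me3 regions (vertical axis) by width class (horizontal axis), with Glis3KO-ND bars left of WT-ND bars and the dark part of each bar the regions that overlap the other list. The percentage above a bar is the overlapping share, which climbs to 88.1% in Glis3KO-ND and 100% in WT-ND at 10 kb or more.

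Where both libraries carried the mark, the domain was usually longer in Glis3KO-ND. Joining overlapping regions of both lists gave 1683 domains. The marked length was larger in Glis3KO-ND in 1322 of them (78.6%), larger in WT-ND in 282 (16.8%) and equal in 79. The median ratio of Glis3KO-ND to WT-ND length was 1.39, with quartiles of 1.05 and 1.88. A length at least 2-fold larger was found in Glis3KO-ND in 381 domains and in WT-ND in 16. In 135 cases a single Glis3KO-ND region spanned 2 or more WT-ND regions, up to 4, and took in 307 of them. The reverse occurred 8 times.

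The 6 widest shared domains lay over homeodomain transcription factor genes that set body and tissue pattern in the embryo. At Hoxc5 to Hoxc12, on chromosome 15 between 102925782 and 103020838, 1 Glis3KO-ND region of 95057 bp stood against 4 WT-ND regions of 80507 bp in all. At Hoxd3 to Hoxd13 with Evx2, a homeobox gene beside the cluster, 56016 bp were marked in Glis3KO-ND and 42621 bp in WT-ND. At Hoxa3 to Hoxa11 the lengths were 57626 bp in Glis3KO-ND and 50229 bp in WT-ND, and at Hoxb5 to Hoxb9 they were 54000 bp in Glis3KO-ND and 39438 bp in WT-ND. The Hoxb13 domain was 42925 bp long in Glis3KO-ND and 19051 bp in WT-ND. The domain of Pax7, a factor of muscle stem cells, was 42368 bp long in Glis3KO-ND and 31023 bp in WT-ND. All 6 were thus longer in Glis3KO-ND, and all 6 were made up of fewer regions in Glis3KO-ND than in WT-ND.

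**Figure D2:**
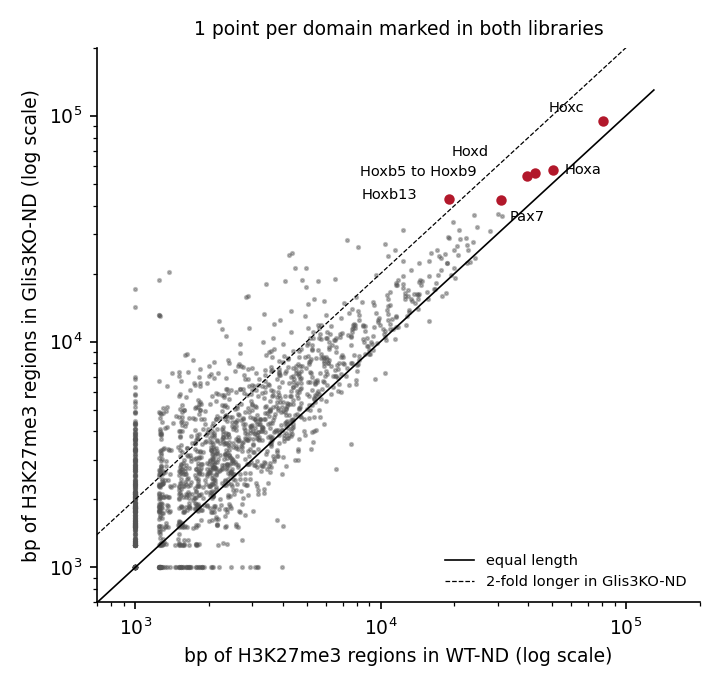
Each point is 1 of 1683 domains marked in both libraries, with its marked length in bp in Glis3KO-ND on the vertical axis and in WT-ND on the horizontal axis, both on log scales. Most points (1322) lie above the line of equal length, and the 6 widest domains are named and drawn in red.

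In both lists the shared regions lay at start sites more often than the unshared ones and were richer in CpG. Within 1 kb of a protein-coding TSS lay 65.6% of shared and 27.04% of unshared Glis3KO-ND regions, and 58.2% of shared and 20.2% of unshared WT-ND regions. Of 1 kb tiles of the chromosomes, taken as a plain reference, 2.60% lay there. Intergenic positions held 46.2% of Glis3KO-ND-only and 51.4% of WT-ND-only regions. The CpG content relative to that expected from the C and G content had a median of 0.289 in Glis3KO-ND-only regions and 0.454 in shared Glis3KO-ND regions. It was 0.249 in WT-ND-only regions, 0.488 in shared WT-ND regions and 0.161 in the tiles. Near a TSS the difference between classes was small, with 0.474 in the Glis3KO-ND-only regions there and 0.493 in the shared ones, and 0.453 in the WT-ND-only regions and 0.537 in the shared ones. In both genotypes the unshared regions were thus narrower, farther from start sites and poorer in CpG than the shared ones.

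A gene was called marked when a region reached into the window of 1 kb on either side of a TSS. Of 20021 protein-coding genes, 1780 were marked in Glis3KO-ND (8.89%) and 1323 in WT-ND (6.61%). In both libraries 1109 were marked, in Glis3KO-ND only 671 (3.35%), and in WT-ND only 214 (1.07%). Of the 671 genes, 611 lay in regions that WT-ND lacked altogether and 60 in a part of a shared region that did not reach the TSS window in WT-ND. Of the 214 genes, 210 lay in regions that Glis3KO-ND lacked. The region at the TSS had a median width of 1921 bp at the Glis3KO-ND-only genes and of 1001 bp at the WT-ND-only genes. At the genes marked in both it was 3927 bp in Glis3KO-ND and 2515 bp in WT-ND. Within the window those 1109 genes had more bases marked in Glis3KO-ND at 566, more in WT-ND at 175, and an equal number at 368, of which 360 were covered over the whole window in both.

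Genes of the 12 transcription factor families chosen here were marked at a high percentage in both libraries, and higher in Glis3KO-ND. This does not hold for all such genes. The numbered Zfp zinc finger genes, counted below with the other genes, were marked at 3.07% in Glis3KO-ND and 2.51% in WT-ND. Of 316 members of 12 transcription factor families, 235 were marked in Glis3KO-ND (74.4%) and 179 in WT-ND (56.6%), whereas of all other protein-coding genes 7.84% were marked in Glis3KO-ND and 5.81% in WT-ND. Marked in Glis3KO-ND only were 58 members (18.4%), 15 of them under a region that overlapped a WT-ND region away from the TSS and 43 under a region that WT-ND lacked. In WT-ND only 2 members (0.633%) were marked, whereas 613 of the other genes (3.11%) were marked in Glis3KO-ND only and 212 (1.08%) in WT-ND only. The families supplied 16.0% of the genes marked in both, 8.64% of the Glis3KO-ND-only genes and 0.935% of the WT-ND-only genes.

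In 4 of the families the libraries differed by few genes. Of 39 Hox genes, 33 were marked in Glis3KO-ND and 31 in WT-ND, and of 12 LIM homeobox genes 11 were marked in Glis3KO-ND and 10 in WT-ND. Of 12 genes of the Irx and sine oculis families 10 were marked in Glis3KO-ND and 9 in WT-ND, and the Nkx family had 10 of 14 marked in either library. Nkx2-5, a factor of heart muscle, lay under a region of 25389 bp in Glis3KO-ND and of 8951 bp in WT-ND. The Hox genes found in Glis3KO-ND only were Hoxd3, Hoxa2 and Hoxb4, which had 796, 311 and 499 bp marked in the window. The Hoxd3 region (25238 bp) overlapped 2 WT-ND regions of 24704 bp in all, which fell short of the window.

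The gap was wider in 4 other families. Of 87 other homeobox genes, 73 were marked in Glis3KO-ND and 55 in WT-ND, with 18 in Glis3KO-ND only and none in WT-ND only. These 18 included Tlx1, a factor of spleen formation, under a region of 28061 bp, and Barhl2 and Otp, both of neurons, under regions of 26912 and 21237 bp. These domains were not absent in WT-ND, where 7287 bp overlapped the Tlx1 region, 10417 bp the Barhl2 region and 4961 bp the Otp region, all short of the TSS window. Of 50 basic helix-loop-helix genes, 32 were marked in Glis3KO-ND and 21 in WT-ND. The 11 found in Glis3KO-ND only included Hand1, of heart and placenta (17020 bp, with a WT-ND region of 1001 bp under it), Tcf21, of mesenchyme (11855 bp), and Olig3, of the neural tube (11487 bp). Of 41 forkhead genes, 24 were marked in Glis3KO-ND and 15 in WT-ND, with 9 in Glis3KO-ND only, among them Foxc1 (12046 bp). The T-box family had 10 of 15 marked in Glis3KO-ND and 6 in WT-ND, and the 4 found in Glis3KO-ND only were Tbx5, Tbr1, Tbx20 and Tbx1, under regions of 13506 to 18785 bp. Of these 4 the Tbx5 region, the widest, overlapped a WT-ND region of 4796 bp, and the other 3 overlapped none.

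The smaller families showed the same order. Sox genes were marked at 11 of 18 in Glis3KO-ND and 8 in WT-ND, the difference being Sox2, Sox11 and Sox7. Pax genes were marked at 7 of 9 in Glis3KO-ND and 5 in WT-ND, the difference being Pax3, of neural crest, and Pax9, of pharyngeal pouches and teeth. The Pax3 region (24290 bp) overlapped 4247 bp of WT-ND regions, and the Pax9 region none. Gata genes were marked at 4 of 5 in Glis3KO-ND and 3 in WT-ND. The Gli, Glis, Zic and Sall zinc finger genes were marked at 10 of 14 in Glis3KO-ND and 6 in WT-ND, and the 4 found in Glis3KO-ND only were Zic4, Glis1, Gli1 and Sall2. The Zic4 region (14287 bp) overlapped a WT-ND region of 1001 bp. No member of these 7 families (other homeobox, basic helix-loop-helix, forkhead, T-box, Sox, Pax and the zinc fingers) was marked in WT-ND only.

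Ligands and receptors of embryonic signalling were also among the marked genes, and each family here exceeded the share over all genes in both libraries. That share was 8.89% in Glis3KO-ND and 6.61% in WT-ND, with 3.35% marked in Glis3KO-ND only and 1.07% in WT-ND only. Wnt ligand genes were marked at 13 of 19 in Glis3KO-ND and 12 in WT-ND, Fgf ligand genes at 12 of 20 in Glis3KO-ND and 9 in WT-ND, and Hedgehog pathway genes at 5 of 7 in Glis3KO-ND and 3 in WT-ND. Of 21 genes of Wnt receptors and antagonists 8 were marked in Glis3KO-ND and 4 in WT-ND, with Sfrp1, Sfrp2, Sfrp4, Dkk2 and Fzd9 in Glis3KO-ND only and Sost, an antagonist made by bone cells, in WT-ND only. The Sost region (3444 bp) had 338 bp in the window and overlapped a Glis3KO-ND region of 2721 bp that fell short of it. Of 30 Bmp, Gdf, activin and Tgfb ligand genes 10 were marked in Glis3KO-ND and 8 in WT-ND, with Bmp4, Tgfb2 and Gdf1 in Glis3KO-ND only and Nodal in WT-ND only.

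Neuronal signalling genes formed the other large block, and here WT-ND-only genes also occurred. Of 92 potassium channel genes, 46 were marked in Glis3KO-ND and 36 in WT-ND, with 17 in Glis3KO-ND only (such as Kcnk3, under 5770 bp) and 7 in WT-ND only (such as Kcnf1, under 2995 bp). Of 46 glutamate, GABA and glycine receptor genes 25 were marked in Glis3KO-ND and 17 in WT-ND, with 11 in Glis3KO-ND only (Grm6 under the widest region, 5982 bp) and 3 in WT-ND only (Gabra5, Glrb and Gabrd). Of 48 amine and acetylcholine receptor genes 28 were marked in Glis3KO-ND and 19 in WT-ND, with 9 in Glis3KO-ND only and none in WT-ND only. Sodium and calcium channel genes were equal in number, at 15 of 39 in each library. Cadherin genes were marked at 7 of 23 in Glis3KO-ND and 6 in WT-ND. Protocadherin genes were not part of this block, at 5 of 67 in Glis3KO-ND (7.46%) and 3 in WT-ND (4.48%). Of all genes 8.89% were marked in Glis3KO-ND and 6.61% in WT-ND, with 3.35% in Glis3KO-ND only and 1.07% in WT-ND only.

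Ribosomal protein, olfactory and vomeronasal receptor, histone and numbered Zfp genes were marked less often than all genes. No ribosomal protein gene of 80 was marked in either library. Olfactory and vomeronasal receptor genes were marked at 6 of 1450 in Glis3KO-ND and 3 in WT-ND, and numbered Zfp zinc finger genes at 11 of 358 in Glis3KO-ND and 9 in WT-ND. Histone genes were marked at 2 of 67 in each. Chemokine and chemokine receptor genes stood at 4 of 58 in Glis3KO-ND (6.90%), nearer the share over all genes, and at 1 in WT-ND (1.72%). Solute carrier genes, at 41 of 362 in Glis3KO-ND and 39 in WT-ND, and collagen genes, at 8 of 42 in each, differed little in number between the libraries. These shares can be read against 8.89% of all genes in Glis3KO-ND and 6.61% in WT-ND. Solute carrier and collagen genes exceeded that share in both libraries.

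**Figure D3:**
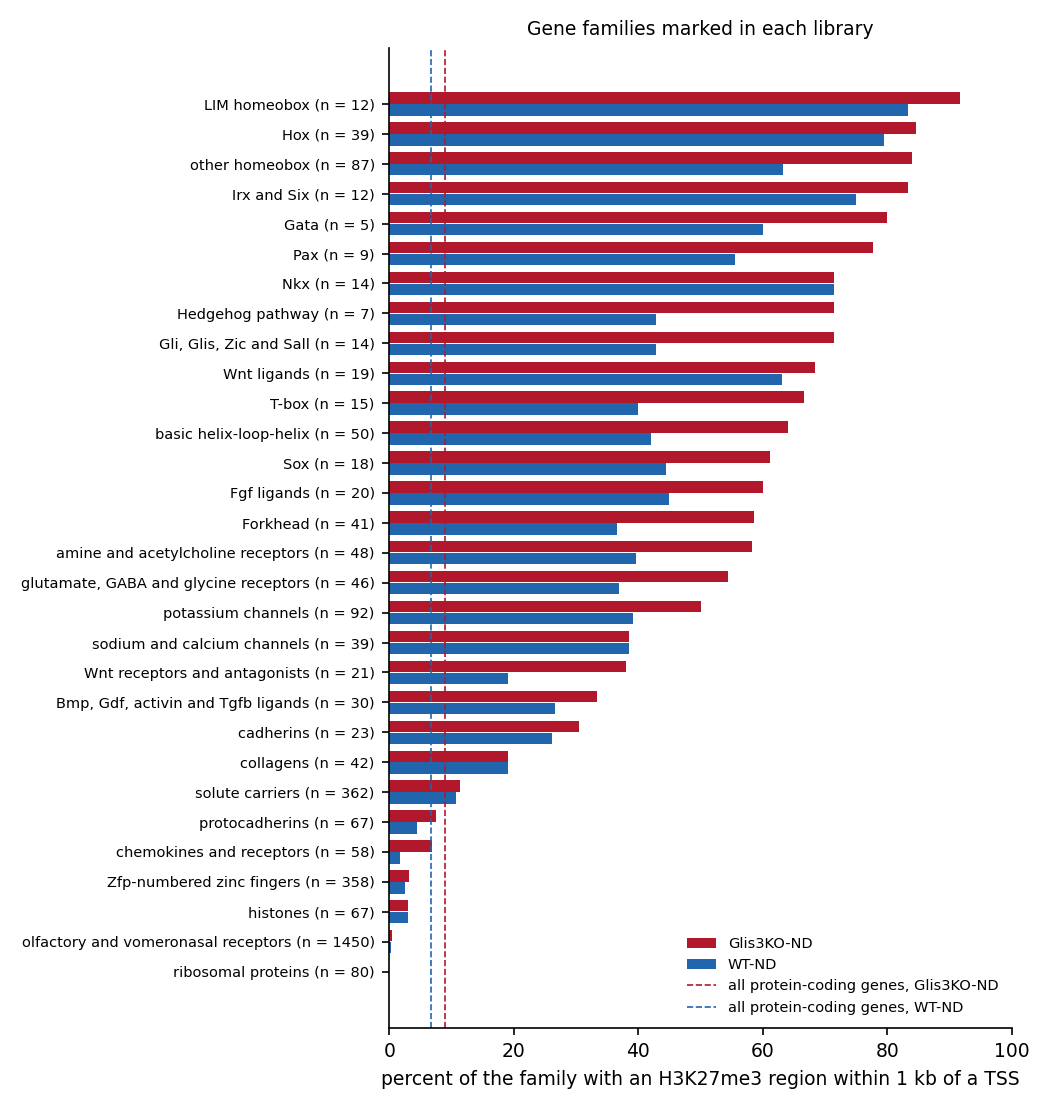
Horizontal bars give the percentage of each gene family (number of genes in brackets) with an H3K27me3 region within 1 kb of a TSS, the Glis3KO-ND bar above the WT-ND bar, and dashed lines give the percentage over all protein-coding genes (8.89% in Glis3KO-ND and 6.61% in WT-ND). Homeobox families reach the highest percentages in both libraries, and forkhead, T-box and basic helix-loop-helix families show a large gap between the bars.

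The widest regions that only Glis3KO-ND held at a TSS were again those of developmental factors. The widest was 25460 bp at Foxf1, a forkhead factor of visceral mesoderm, on chromosome 8 between 121068650 and 121094109, and the nearest WT-ND region was 19573 bp away, over Foxc2 and Foxl1. Next came Erfl, named for its likeness to an ETS repressor (21589 bp), with a WT-ND region 1486 bp away, and Gata2, of blood and endothelium (18508 bp), on chromosome 6 between 88187332 and 88205839. Tbr1, a factor of cortical neurons (17038 bp), had its nearest WT-ND region 4588731 bp away. Dlx4 (15773 bp), the neighbours Ccno and Mcidas, which act in multiciliated cells (15469 bp), Foxa2, of endoderm (15060 bp), Mnx1, of motor neurons and pancreas (14495 bp), Wt1, of kidney and gonad (13912 bp), and Tbx20, of heart (13612 bp), completed the 10. H3K4me3 was also listed within 9 of these 10 regions in Glis3KO-ND, Wt1 being the exception, and within all 10 in WT-ND.

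The widest regions that only WT-ND held at a TSS were shorter, and those described here were of mixed function. They lay at Efcab6, an EF-hand protein gene (6323 bp), Prrt4 (5892 bp), Mycl, a Myc family gene (4099 bp), and Pyy, a gut hormone gene (4071 bp). Others lay at Vtn, which encodes vitronectin (3265 bp), Mmp24, a membrane metalloproteinase gene (3102 bp), and Gcgr, the glucagon receptor gene (3052 bp). At Mmp24 a Glis3KO-ND region lay 2235 bp away, and at Efcab6 one lay 2726 bp away.

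The low iodine diet (LID) libraries gave a further look at these regions in other mice of both genotypes. They were unequal, with 17570 regions over 54.1 Mb in Glis3KO-LID and 2576 regions over 7.41 Mb in WT-LID, and Glis3KO-LID contained most regions of either ND list. Of the 10 widest Glis3KO-ND-only regions all 10 overlapped a Glis3KO-LID region and 8 a WT-LID region, the exceptions being Foxf1 and Tbr1. At Tbx20 the WT-LID regions covered 13451 of the 13612 bp, and at Dlx4 14559 of the 15773 bp. Of the 7 WT-ND-only regions named above all 7 overlapped a Glis3KO-LID region and 6 a WT-LID region, the exception being Efcab6. Most of the widest regions absent in WT-ND were thus listed in WT thyroids on the LID. Over all Glis3KO-ND-only regions 80.1% overlapped a Glis3KO-LID region and 20.4% a WT-LID region (interval 18.8 to 22.1%). Over all WT-ND-only regions 73.4% overlapped a Glis3KO-LID region and 13.1% a WT-LID region (interval 11.3 to 15.2%).

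Width again went with these shares, and at equal width both sets gave close values. The percentage found in WT-LID was 6.49% of Glis3KO-ND-only and 6.76% of WT-ND-only regions of 1001 bp, 18.8% of Glis3KO-ND-only and 23.8% of WT-ND-only regions of over 1001 bp but under 2 kb, and 50% of Glis3KO-ND-only and 47.6% of WT-ND-only regions of 2 to 5 kb. At 10 kb or more 23 of 27 Glis3KO-ND-only regions (85.2%) were found in WT-LID. Of the shared Glis3KO-ND regions 98.5% were found in Glis3KO-LID and 70.0% in WT-LID. At the level of genes, 642 of the 671 marked in Glis3KO-ND only were marked in Glis3KO-LID and 292 in WT-LID (43.5%), beside 17.6% of all genes in Glis3KO-LID and 6.69% in WT-LID. Of the 214 marked in WT-ND only, 196 were marked in Glis3KO-LID and 49 in WT-LID (22.9%).

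**Figure D4:**
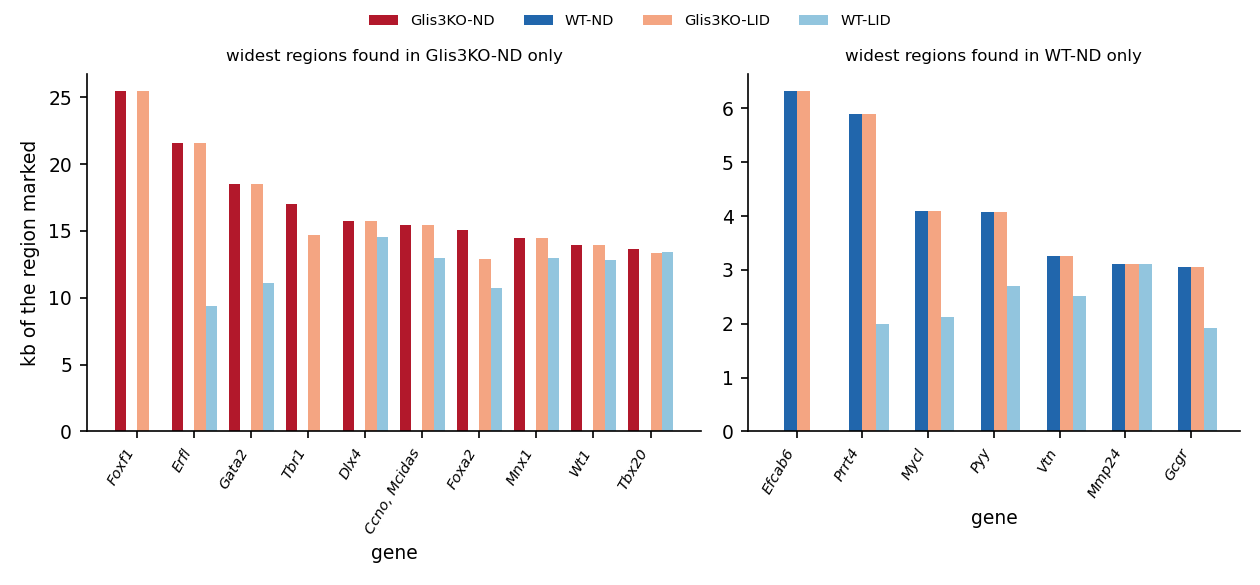
Bars give how many kb of each region were marked in Glis3KO-ND, WT-ND, Glis3KO-LID and WT-LID, for the 10 widest Glis3KO-ND-only regions (left panel) and the 7 named WT-ND-only regions (right panel, with its own vertical scale), 1 library per bar and no error bars. The WT-LID bar is above 0 at 8 of 10 regions on the left and 6 of 7 on the right.

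Among genes marked in both libraries, the largest differences at a TSS lay in which start site was marked or in how far into the window a region reached. The 6 largest gains in Glis3KO-ND had the whole TSS window covered in Glis3KO-ND, as did 637 of the 1109 genes in all. In WT-ND the window was free of the mark at Lmo1, a LIM-only gene, and at Msi1, an RNA-binding protein gene of neural progenitors, whose WT-ND regions lay at another of their start sites. Hoxb5 had the whole window marked in Glis3KO-ND and 20 bp in WT-ND, and Elovl3, a fatty acid elongase gene, the whole window in Glis3KO-ND and 82 bp in WT-ND. Sox18, of endothelium, had the whole window marked in Glis3KO-ND and 186 bp in WT-ND, and Six3, of eye and forebrain, had the whole window marked in Glis3KO-ND and 189 bp in WT-ND. The reverse was seen at 1 TSS of Bdnf, a neurotrophin gene, with 0 bp in Glis3KO-ND and the whole window in WT-ND, while another of its start sites was marked in Glis3KO-ND. Zeb2 had 0 bp in Glis3KO-ND and 1716 bp in WT-ND at 1 TSS, and Prkg1, a cGMP-dependent kinase gene, 0 bp in Glis3KO-ND and 1485 bp in WT-ND. Prokr1, a prokineticin receptor gene, had 414 bp in Glis3KO-ND and 1922 bp in WT-ND. Stk32c, a kinase gene, had 524 bp in Glis3KO-ND and 1887 bp in WT-ND, and Rbp4, which encodes the retinol carrier of blood, had 328 bp in Glis3KO-ND and 1634 bp in WT-ND.

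Of the 10 genes of thyroid hormone (TH) synthesis that could be matched, none was marked in Glis3KO-ND and 2 were in WT-ND, beside 8.89% of all genes in Glis3KO-ND and 6.61% in WT-ND. On the LID, 5 of the 10 were marked in Glis3KO-LID and none in WT-LID, beside 17.6% of all genes in Glis3KO-LID and 6.69% in WT-LID. The genes marked in WT-ND were Duox2, the oxidase that supplies hydrogen peroxide for iodination, and its neighbour Duoxa2, the maturation factor of that oxidase, and both were touched by 1 region of the minimum width, on chromosome 2 between 122297575 and 122298575. It covered 1001 bp of the Duox2 window and 676 bp of the Duoxa2 window. The nearest Glis3KO-ND region lay 2822 bp from the closest annotated Duox2 TSS, which is not the TSS of that window. Both genes were marked in Glis3KO-LID, over the whole window at Duox2 and 1697 bp at Duoxa2, and had 0 bp in WT-LID. The start sites of Slc5a5, Slc26a4, Tshr, Iyd, Tg, Duox1 and Duoxa1 were unmarked in both, the closest being Duoxa1 with a Glis3KO-ND region 11158 bp away and a WT-ND region 15155 bp away. The sodium iodide symporter gene Slc5a5 had its nearest region 27833 bp away in Glis3KO-ND and 27463 bp away in WT-ND. The thyroglobulin gene Tg lay 383130 bp from the nearest Glis3KO-ND region and 1748645 bp from the nearest WT-ND region.

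Of the thyroid transcription factor genes Glis3, Hhex, Pax8, Nkx2-1 and Foxe1, 1 was marked in Glis3KO-ND and none in WT-ND. Of all genes 8.89% were marked in Glis3KO-ND and 6.61% in WT-ND, so 0 or 1 among 5 genes is near that share. The marked gene was Foxe1, a forkhead gene needed for thyroid migration, under a region of 2041 bp on chromosome 4 between 46343301 and 46345341. That region covered 1344 bp of the Foxe1 window, and no region was listed there in WT-ND, Glis3KO-LID or WT-LID. H3K4me3 covered the whole Foxe1 window in Glis3KO-ND and in WT-ND, and a PAX8 peak lay at the TSS. Of 8 genes that the study lists as induced by thyroid-stimulating hormone, the cadherin gene Cdh13 and the chloride channel gene Ano1 were marked in both libraries. Cdh13 had 1567 bp in Glis3KO-ND and 885 bp in WT-ND, and Ano1 had 1845 bp in Glis3KO-ND and 1137 bp in WT-ND.

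Extracellular matrix genes that the study picked out were marked at 4 of 21 in each library. Adamts8, a metalloproteinase gene, Col13a1 and Col14a1 were marked in both. The integrin gene Itga2 was marked in Glis3KO-ND only, with 975 bp of the window, and the collagen gene Col12a1 in WT-ND only, with 197 bp. None of the 8 inflammation genes (chemokine genes and Il6) was marked in either. Of all genes 8.89% were marked in Glis3KO-ND and 6.61% in WT-ND, so 0 among 8 genes is near that share.

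Lists of cell type markers were checked because the tissue was a whole gland, and their counts can be read against 8.89% of all genes in Glis3KO-ND and 6.61% in WT-ND, so that 0 marked genes in lists of this size is near the share over all genes. Of 10 thyrocyte markers 1 was marked by H3K27me3 in Glis3KO-ND (Foxe1) and 1 in WT-ND (Duox2), and H3K4me3 was listed at 10 in Glis3KO-ND and at 9 in WT-ND, Tg being without it in WT-ND. Epithelial, immune and adipocyte markers had no H3K27me3 at any of their 8, 10 and 6 genes in either library. Fibroblast markers differed by the most genes, with 4 of 10 marked in Glis3KO-ND and 1 in WT-ND and a summed length of 8.004 kb in Glis3KO-ND and 2.001 kb in WT-ND. Pdgfra was marked in both, and the mesenchymal factors Tcf21, Prrx1 and Twist2 in Glis3KO-ND only, under regions of 11855, 9421 and 3664 bp. The collagen genes Col1a1, Col1a2 and Col3a1 stood at 0 bp in both libraries. Of these 3 factors all were marked in WT-LID too, over the whole window at Tcf21, 814 bp at Prrx1 and 931 bp at Twist2.

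Markers of the other cell types differed by 1 or 2 genes at most. Parathyroid markers were marked at 2 of 3 in Glis3KO-ND and 0 in WT-ND, summing to 0.688 kb in Glis3KO-ND and 0.0 kb in WT-ND. The regions had the minimum width and covered 677 bp of the window at Casr, the calcium receptor gene. At Gcm2 only 11 bp of the window were covered. Skeletal muscle markers were marked at 4 of 10 in Glis3KO-ND and 3 in WT-ND, with Myf6 the difference. Neuronal markers were marked at 9 of 10 in Glis3KO-ND and 8 in WT-ND, with Elavl4 the difference. C cell markers were marked at 4 of 9 in each library and endothelial markers at 2 of 10 in each. In a whole gland fewer cells that carry a mark and less of the mark in each cell cannot be told apart, and the part of cell composition in the differences was not tested.

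Most marked start sites also carried H3K4me3 in the same tissue. Of the 671 genes marked in Glis3KO-ND only, 495 had H3K4me3 within 1 kb of a TSS in Glis3KO-ND (73.8%) and 436 in WT-ND (64.98%), while 413 had it in both. Of the 214 marked in WT-ND only, 149 had H3K4me3 in Glis3KO-ND (69.6%) and 158 in WT-ND (73.8%). Of the 18027 genes marked in neither, 62.1% had H3K4me3 in Glis3KO-ND and 62.1% in WT-ND. In each set of genes marked in 1 library, H3K4me3 was thus listed at more genes in the library with the H3K27me3 region than in the other. The counts of H3K4me3 found in 1 of the libraries were 82 in Glis3KO-ND and 23 in WT-ND at the Glis3KO-ND-only genes, and 8 in Glis3KO-ND and 17 in WT-ND at the WT-ND-only genes. At genes marked in neither library they were 278 in Glis3KO-ND and 282 in WT-ND. At the level of regions, 65.3% of shared and 25.9% of unshared Glis3KO-ND regions overlapped H3K4me3 of Glis3KO-ND. For WT-ND regions and H3K4me3 of WT-ND the values were 60.5% of shared and 20.2% of unshared regions.

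Nearness to the thyroid factors was read from 45836 NKX2.1 and 50758 PAX8 peaks of 300 bp on the numbered chromosomes. The study's text reports fewer peaks of each factor, and this difference was not resolved, so the values below hold for the longer lists used here. The factor libraries were labelled as WT thyroid on the LID, while older Glis3-EGFP animals are named for factor ChIP-seq in the study's methods, so the mice, and by either source the diet, differed from those of the ND libraries. Within 5 kb, NKX2.1 peaks were about as frequent at H3K27me3 regions as at the chromosomes in general. An NKX2.1 peak lay within 5 kb of 17.2% of Glis3KO-ND-only regions (interval 15.7 to 18.8%) and of 19.0% of shared Glis3KO-ND regions. The values were 19.6% of WT-ND-only regions, 16.6% of shared WT-ND regions and 16.4% of the 1 kb tiles. For PAX8 peaks the share was higher at H3K27me3 regions than at the tiles, and higher at the wider, shared ones. A PAX8 peak lay within 5 kb of 23.9% of Glis3KO-ND-only regions (interval 22.2 to 25.6%), 32.3% of shared Glis3KO-ND regions, 24.2% of WT-ND-only regions, 30.5% of shared WT-ND regions and 17.8% of the tiles. The PAX8 share went with width, at 22.0% of Glis3KO-ND and 24.2% of WT-ND regions of 1001 bp and 55.9% of Glis3KO-ND and 56.0% of WT-ND regions of 10 kb or more. The intervals of the unshared Glis3KO-ND and WT-ND regions overlapped for both factors.

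Inside the regions the factors differed from each other. The density of NKX2.1 peak midpoints was 6.80 per Mb in Glis3KO-ND-only regions, 8.31 in shared Glis3KO-ND regions, 10.8 in WT-ND-only regions and 9.17 in shared WT-ND regions, all below the 18.6 per Mb of the chromosomes. The density of PAX8 peak midpoints was 27.7 per Mb in Glis3KO-ND-only regions, 34.7 in shared Glis3KO-ND regions, 28.1 in WT-ND-only regions and 36.7 in shared WT-ND regions, against 20.6 per Mb of the chromosomes. In the unshared sets the excess over the chromosomes lay in regions near a TSS. The density there was 44.4 per Mb in Glis3KO-ND-only regions (75 midpoints) and 50.9 in WT-ND-only regions (17 midpoints). Away from a TSS it was 16.7 in Glis3KO-ND-only and 20.9 in WT-ND-only regions. No density was computed for start sites as a whole. Of 1 kb tiles within 1 kb of a TSS, 13.4% overlapped a PAX8 peak. The shares were no higher in the unshared regions there, at 12.4% in Glis3KO-ND and 8.2% in WT-ND. The WT-ND-only value for NKX2.1 rests on 15 peaks and the Glis3KO-ND-only value on 29.

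Peaks of both factors were frequent at start sites. Of tiles within 1 kb of a TSS, 36.1% had an NKX2.1 peak and 42.6% a PAX8 peak within 5 kb. Of the Glis3KO-ND-only regions near a TSS the percentages were 18.6% for NKX2.1 and 28.6% for PAX8, and of the shared Glis3KO-ND regions there 19.1% and 33.0%. Of the WT-ND-only regions near a TSS they were 22.1% for NKX2.1 and 30.3% for PAX8, and of the shared WT-ND regions there 17.3% and 30.7%. H3K27me3 regions at start sites thus had fewer NKX2.1 and fewer PAX8 peaks in reach than start sites as a whole. Away from start sites, 16.7% of Glis3KO-ND-only regions and 15.9% of tiles had an NKX2.1 peak within 5 kb, and 22.1% and 17.2% had a PAX8 peak.

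**Figure D5:**
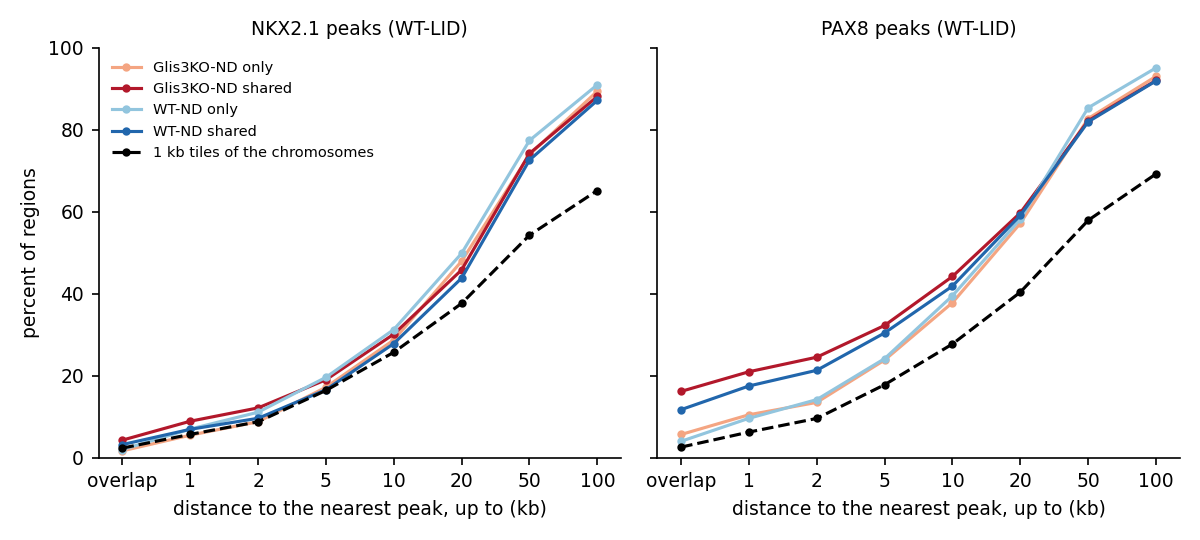
Lines give the percentage of H3K27me3 regions with an NKX2.1 peak (left panel) or a PAX8 peak (right panel) within the distance on the horizontal axis, for unshared and shared regions of Glis3KO-ND and WT-ND, and for 1 kb tiles of the chromosomes (dashed). For PAX8 the shared regions start higher (16.2% in Glis3KO-ND and 11.8% in WT-ND overlap a peak) than the unshared ones (5.70% in Glis3KO-ND and 4.03% in WT-ND), and at 20 kb and beyond all 4 sets lie together above the tiles.

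Few regions held peaks of both factors. Of the Glis3KO-ND-only regions 17 did, 23 held NKX2.1 alone, 117 PAX8 alone and 2195 neither. Of the WT-ND-only regions 10 held both, 13 NKX2.1 alone, 36 PAX8 alone and 1082 neither. The widest Glis3KO-ND-only region with both was that of Ccno and Mcidas, with 1 NKX2.1 and 2 PAX8 peaks inside, followed by that of Brsk2, a kinase gene of neurons (8086 bp, with 1 peak of each). Among the 12 widest with both, Kirrel3 and Gng4, genes of neuronal adhesion and signalling, and Flt3, a receptor gene of blood progenitors, were the other genes that had a region to themselves. At a TSS the WT-ND-only regions with both had Rgs8, a regulator of G protein signalling, under 1001 bp. The most PAX8 peaks in a Glis3KO-ND-only region were 3, at Pax9 (9117 bp). Among shared regions 4 lay in the Glis3KO-ND region of Nkx2-3, a factor of spleen and gut (28563 bp), and 3 in its WT-ND region (15882 bp), and 3 lay at Pax6, of eye and pancreas, in both libraries.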

How the data were processed

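Per the labels and the study's methods, chromatin of mouse thyroid was immunoprecipitated and sequenced as single-end reads. Adapters were removed with cutadapt 1.12, reads were mapped to mm10 with Bowtie 1.2 keeping unique hits, and duplicates were removed with Picard 1.110. H3K27me3 regions were called per library by the authors with HOMER 4.10.3 in region mode, with a size of 1000 bp and a minimum distance of 2500 bp. Use of an input library for these calls is not stated in the sources used here. NKX2.1 and PAX8 peaks were called against input and resized to 300 bp. The deposited files hold chromosome, start and end only, with no score or read count, so depth per library is unknown and precision is given as 95% Wilson intervals for counting error.

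From these files, overlaps, distances and covered lengths were computed with Python 3.11.15, numpy 2.4.6 and pandas 2.3.3, and plotted with matplotlib 3.10.9. The interval functions were tested on simulated data. Numbered chromosomes were used. A region was shared if at least 1 bp overlapped the other list, and a gene was marked if a region came within 1 kb of a curated RefSeq TSS (GRCm38.p6, 20021 protein-coding genes). For the covered length around a TSS, 1 start site per gene was used. Promoter sequences matched 16010 of the 20021 genes by symbol. Tiles of 1 kb covered the whole chromosomes, assembly gaps included. Each group was 1 library, so no test was run. Alternatives were other overlap rules, widths, list lengths, windows and distances.

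Named were the genes of the 10 widest Glis3KO-ND-only and 8 widest WT-ND-only regions at a TSS, of the 6 widest joined domains, the 6 genes with the largest gain and the 6 with the largest loss of covered bases among genes marked in both, study genes and markers marked in 1 library, and the family members with the widest regions. Genes whose promoters are printed, genes beside factor peaks, and family members named because a count was small were chosen after their values were seen. The members and lists were chosen with earlier results of these data known. Some genes that these rules select are not reported here.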

Additional observations from a re-analysis of the deposited data

Results flagged for a closer look

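Of 30 genes named for the largest differences, 10 differed between Glis3KO and WT in opposite directions on the 2 diets, and this difference was not tested, each group being 1 library. The measure is the percentage of the TSS window under H3K27me3, Glis3KO minus WT, in percentage points, and on the LID the Glis3KO list held 17570 regions and the WT list 2576. The difference was negative on the ND and positive on the LID at all 10. These genes were named for their difference on the ND, and the Glis3KO list was far longer on the LID. A reversal was therefore open mainly to genes with more of the mark in WT-ND, so no conclusion is drawn from the count. It was -32.2 on the ND and 98.7 on the LID at Efcab6, -100 on the ND and 91.5 on the LID at Prrt4, and -60.4 on the ND and 25.3 on the LID at Mycl. At Vtn it was -64.9 on the ND and 72.3 on the LID. At the start sites of Bdnf, Zeb2 and Prkg1 that lacked the mark in Glis3KO-ND, it was -100 on the ND and 9.80 on the LID at Bdnf, -85.8 on the ND and 69.6 on the LID at Zeb2, and -74.2 on the ND and 100 on the LID at Prkg1. At Prokr1 it was -75.4 on the ND and 100 on the LID, at Stk32c -68.1 on the ND and 55.5 on the LID, and at Rbp4 -65.3 on the ND and 24.4 on the LID. At all 10 genes the window was marked in Glis3KO-LID.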

How the results depend on the processing

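The percentage of regions shared depended on the rule. For Glis3KO-ND, 41.8% of regions were shared, and the value was 29.6% when the overlap had to span at least 50% of the region, 48.7% among regions of at least 2 kb in both lists and 52.9% when both lists were held to their 2996 widest regions. For WT-ND, 61.9% were shared, and the values under these settings were 57.8%, 88.8% and 58.4%. A setting chosen after seeing the data, which counted regions within 2500 bp of the other list as shared, gave 46.8% in Glis3KO-ND and 68.3% in WT-ND. Joining close regions or adding the X chromosome moved these percentages by less than their intervals. The covered length was larger in Glis3KO-ND under each setting tried, with a ratio of 1.63 at equal list length and 2.04 among regions of at least 2 kb. Genes marked in Glis3KO-ND only numbered 554 to 840 and those marked in WT-ND only 185 to 279. Of Glis3KO-ND-only regions 17.2% had an NKX2.1 peak within 5 kb of the edge, with 1.70% overlapping a peak, 48.0% within 20 kb and 15.1% within 5 kb of the midpoint. For PAX8 the main value was 23.9%, with 5.70% overlapping, 57.2% within 20 kb and 21.4% within 5 kb of the midpoint. With both lists cut to regions of at least 2 kb before overlap was counted, it was 27.9% of 912 Glis3KO-ND regions. Some of these 912 overlapped a narrower WT-ND region and were shared under the main rule. The cause of these shifts was not tested beyond what the rules themselves set.

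No paired analysis was possible because each group had 1 library. With no score and no read count in the lists, how far list length follows sequencing depth or the caller's threshold was not tested. The factor libraries came from mice on another diet.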
